A study of Mus musculus with 22 samples.

Results

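Transcript abundance was described in the 3 libraries of wild-type germinal vesicle (GV) oocytes, out of 22 libraries in the series. They were chosen by their labels alone. All 3 came from C57BL/6 mice with the genotype Dicer-WT/WT, the labels give no age for them, and each library was made from total RNA of a small pool of fully grown GV oocytes that was amplified before fragmentation. The other libraries of the series, from mice with altered Dicer or Mili genes and their controls, were not used. Nothing in the labels says whether the 3 pools came from separate animals, so the spread between them may be partly technical, and with a single group no test of a difference was possible. The 3 libraries held 69310021, 60660215 and 60908103 reads counted to genes. Levels are given as RPKM (counts per kilobase of annotated exon, scaled to the total count of the library), as mean ± SD with n = 3 or as the values of replicates 1, 2 and 3 in that order.

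A fully grown GV oocyte is arrested in the prophase of the first meiotic division. During growth it builds a large store of maternal mRNA, and transcription then falls silent, so meiotic maturation and the start of embryonic development rely on transcripts that are already there. The abundance of a transcript in such a cell is therefore a stock, much of which is held untranslated until maturation.

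Markers of the oocyte were abundant in every library. Gdf9, a growth factor that the oocyte secretes toward its follicle cells, stood at 2236, 2041 and 2352 RPKM and ranked 11 of 52636 genes. Zp3, which encodes a glycoprotein of the zona pellucida, the coat of the egg, stood at 1149, 978 and 1210 RPKM (rank 21). Oosp1, an oocyte-secreted protein gene, had 505, 559 and 568 RPKM. Thus these genes were among the 50 most abundant of all by their mean level, and their replicate ranges did not overlap each other. Nlrp5, whose product is needed for development beyond the first cleavages, followed with 427, 370 and 415 RPKM (rank 72). Dicer1, the nuclease of RNA interference, was expressed at 98.8, 103 and 102 RPKM (rank 547), the narrowest spread of the 5 markers (coefficient of variation, CV, 2.03%).

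Of the 52636 genes, 19833 had at least 10 counts in every library and 13393 reached 1 RPKM in every library. Among 21896 protein-coding genes, 13700 (62.6%) met the first limit and 9718 (44.4%) the second, and the median level of the latter was 9.66 RPKM. At higher levels the numbers fell steeply, to 5484 genes at 10 RPKM, 513 at 100 RPKM and 20 at 1000 RPKM in all 3 libraries. No read was counted for 15873 genes in any library, where 3 counts, the limit that a count of 0 allows, correspond to 0.0433 to 0.0495 CPM (counts scaled to library size, counting error only). A further 3719 genes reached 10 counts in some libraries and not in others.

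The transcriptome was concentrated on few genes. The 10 most abundant genes held 16.7 ± 0.710% of the summed RPKM, the 100 most abundant 30.9 ± 0.689% and the 1000 most abundant 59.7 ± 0.426%. On average 537 genes made up 50% of the summed level. The first 10 included the mitochondrial rRNA genes mt-Rnr2 and mt-Rnr1, as well as AY036118, Gm42418 and short entries annotated as miRNA, all described below. Ranked by counts instead, the first 10 genes held 7.50 ± 0.195% of the counts and the first 100 held 20.8 ± 0.217%. Among nuclear protein-coding genes the first 10 held 8.05 ± 0.0799%, the first 100 held 22.0 ± 0.145% and 686 genes were needed for 50%. Membership at the top was largely shared between libraries, while the order within it varied. All 10 of the first 10 genes, 27 of the first 30, 90 of the first 100 and 921 of the first 1000 were shared by the 3 libraries. Of the 100 genes with the highest mean level, 69 were nuclear protein-coding genes, 9 were mitochondrial, 9 were pseudogenes, 6 were long intergenic non-coding RNA (lincRNA) genes, 6 were shorter than 200 bases and 1 was an antisense gene.

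Among nuclear genes of at least 200 bases, Elobl, named for its similarity to elongin B, was the most abundant (chr11:88964658-88966931, GRCm38, minus strand). It had 6105, 6270 and 5864 RPKM. Zbed3 (chr13:95323612-95337841), a component of the subcortical maternal complex, followed with 4856, 4972 and 4684 RPKM. No library of Zbed3 reached the lowest library of Elobl. The next protein-coding genes were Gdf9 and Spin1, a chromatin reader named spindlin, at 1448, 1463 and 1572 RPKM.

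Below Spin1 the levels lay close together. Dppa3, also known as Stella, which protects maternal DNA methylation, had 1175, 1175 and 1439 RPKM. Sod1, the cytosolic superoxide dismutase, had 1218, 1191 and 1196 RPKM and the smallest spread of the 30 most abundant nuclear genes (CV 1.20%). Ldhb, a lactate dehydrogenase subunit, had 1225, 1008 and 1301 RPKM. The order of these genes cannot be read from 3 libraries, because the ranges of Dppa3, Sod1 and Ldhb overlapped. Bpgm, which encodes an enzyme of a side branch of glycolysis (1113 ± 105 RPKM), and H1foo, the oocyte linker histone gene (1085 ± 52.0 RPKM), stood next to Zp3. In the list of 30, the replicate ranges of 24 of the 29 pairs of neighbours overlapped, and the CV ran from 1.20 to 15.1%.

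The remainder of the 30 included further genes with known maternal roles. Bmp15, the partner of Gdf9 in signalling to follicle cells, had 924 ± 101 RPKM, and the ratio of Gdf9 to Bmp15 was 2.41, 2.48 and 2.30. Nlrp14 had 812 ± 122 RPKM and Padi6, which is required for cytoplasmic lattices, had 716 ± 76.6 RPKM. Plat, the tissue plasminogen activator gene whose mRNA is stored until maturation, had 703 ± 50.7 RPKM. Dnmt1, the maintenance DNA methyltransferase, had 646 ± 24.7 RPKM and Zfp57, a zinc finger protein that protects imprints, 637 ± 24.2 RPKM. Bcl2l10, a member of the Bcl2 family, had 736 ± 65.7 RPKM. The others were Gyg, which primes glycogen, at 617 ± 7.67 RPKM, Rdx, which encodes radixin, at 609 ± 26.6 RPKM, Trim61 at 606 ± 44.3 RPKM, AU022751 at 718 ± 82.2 RPKM and D6Ertd527e at 679 ± 87.9 RPKM.

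**Figure D1:**
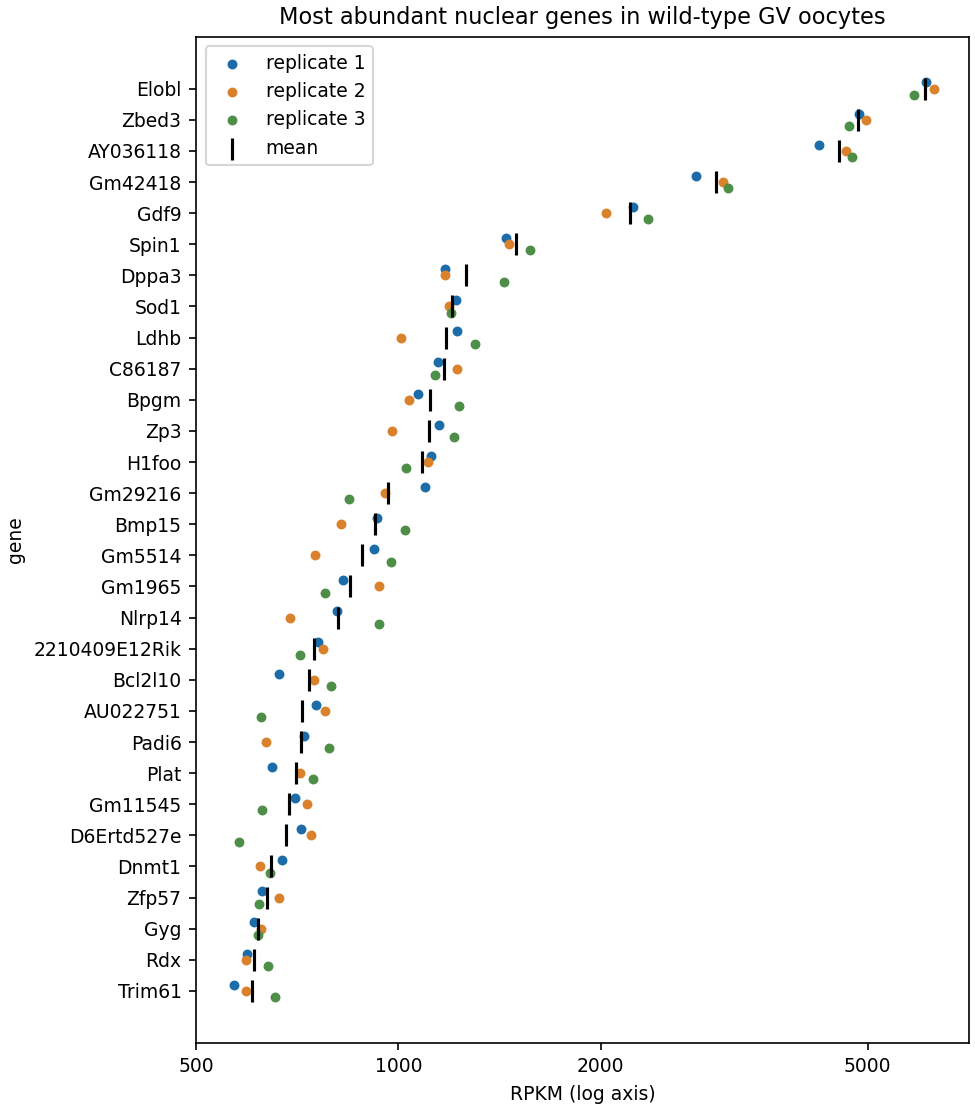
RPKM (log axis) of the 30 most abundant nuclear genes of at least 200 bases, with a point for each of the 3 replicates and a bar at the mean. Elobl lies apart at the top, Zbed3 and AY036118 overlap each other, and below Spin1 the ranges of most neighbours overlap.

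Several entries in the list of 30 were not separate mRNAs of known function. Gm5514, a processed pseudogene of 306 bases, matched Ldhb at 95% identity or more over at least 50% of its length and received 17212 counts on average against 97899 for Ldhb. With both counted together, Ldhb would stand at 1385 ± 179 RPKM. The pseudogene 2210409E12Rik (749 RPKM) matched Elobl in the same way, and Gm29216 (965 RPKM) matched the mitochondrial gene mt-Co1. All 30 genes had counts that were not whole numbers, which shows that some of their reads were split with another place or gene. Among the lincRNA genes of the list, C86187 had 1168 ± 48.7 RPKM and Gm1965 had 847 ± 81.7 RPKM.

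The lincRNA genes AY036118 (chr17:39847113-39848035, minus strand) and Gm42418 (chr17:39846958-39848788, plus strand) cover the same place on opposite strands. AY036118 had 4226, 4637 and 4736 RPKM and Gm42418 had 2774, 3043 and 3100 RPKM. Their ratio was 1.52, 1.52 and 1.53. The 923 bases of AY036118 matched an annotated rRNA gene, CT010467.1, at 100% identity, and the libraries were not stranded, so reads of the 2 genes cannot be told apart. Together they held 0.963 ± 0.0569% of all counts.

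By gene type, protein-coding genes held 90.5, 90.9 and 90.8% of the counts. Mitochondrial rRNA held 3.11 ± 0.263%, lincRNA 2.58 ± 0.0757%, processed pseudogenes 1.84 ± 0.0214% and antisense genes 0.501 ± 0.00661%. Per kilobase the picture differed, because short genes weigh more. Protein-coding genes then held 71.4 ± 0.694% of the summed RPKM, processed pseudogenes 7.11 ± 0.0674%, genes annotated as miRNA 6.62 ± 0.529%, mitochondrial rRNA 6.31 ± 0.506% and lincRNA 4.32 ± 0.161%. Of the processed pseudogenes, 2886 of 8649 (33.4%) had at least 10 counts in every library, and 98.3% of these had counts that were not whole. Of the lincRNA genes, 931 of 5009 (18.6%) passed that limit. The leading antisense gene was Arhgap20os, at 407 ± 32.0 RPKM, which overlaps exons of Arhgap20 on the other strand. Because the libraries were not stranded, reads in the shared exons cannot be assigned to either gene. The same limit applies to the share of antisense genes.

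**Figure D2:**
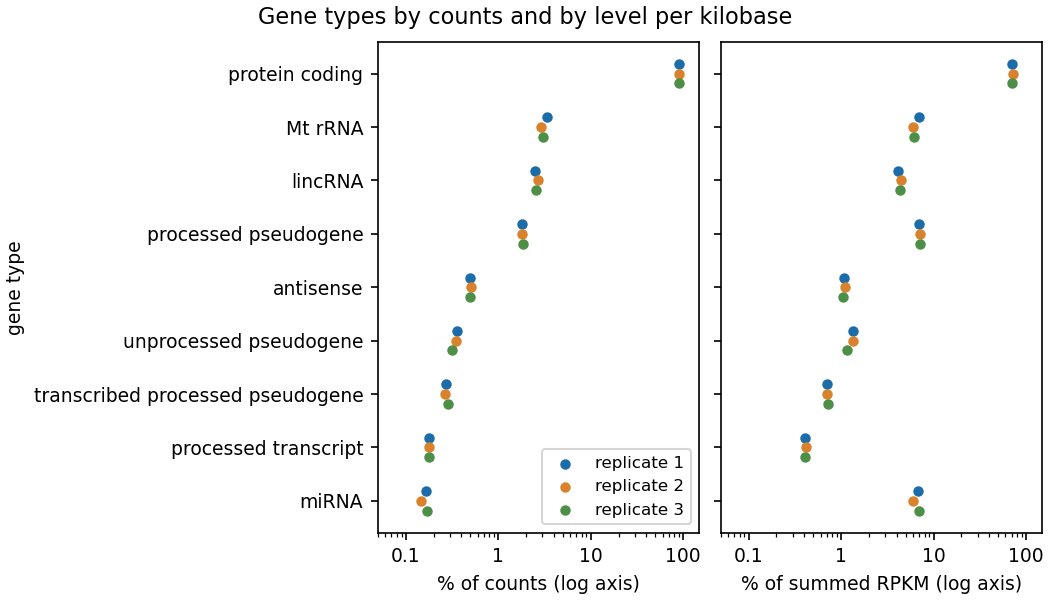
Share of each gene type in the counts (left) and in the summed RPKM (right), in percent on log axes, with a point for each of the 3 replicates. Processed pseudogenes rise from 1.84 to 7.11% and genes annotated as miRNA from 0.161 to 6.62% when levels are taken per kilobase.

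The share of genes annotated as miRNA rested on a few near-identical entries of 56 or 57 bases. They are shown because reads from such sequences match several of these places. Capitals mark bases that differ from Gm23935, the sequences are GENCODE transcripts on GRCm38, and positions count from 1 at the 5′ end of Gm23935.
Gm23935: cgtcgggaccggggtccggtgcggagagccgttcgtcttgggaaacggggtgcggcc
Gm24270: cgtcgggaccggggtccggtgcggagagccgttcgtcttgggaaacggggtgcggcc
Gm24245: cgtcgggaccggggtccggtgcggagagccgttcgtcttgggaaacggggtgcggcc
Gm24187: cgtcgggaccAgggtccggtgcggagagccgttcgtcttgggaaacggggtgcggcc
Gm25911: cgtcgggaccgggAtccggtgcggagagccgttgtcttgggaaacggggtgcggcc
Gm23935 lies at chr16:11144125-11144181 on the plus strand, Gm24270 at chr9:56223715-56223771 on the minus strand and Gm24245 at chr4:139338304-139338360 on the plus strand. These 3 were identical, while Gm24187 carried G11A and Gm25911 carried G14A and lacked 1 base. Gm23935 stood at 13006, 10876 and 13536 RPKM, which ranked 2, 3 and 1 among all genes in the 3 libraries, and Gm24270 at 3603 RPKM and Gm24245 at 3007 RPKM on average. A read that lies within the identical sequences matches all 3 places. The levels of the 3 genes nevertheless differed in the same direction in every library, and the cause was not tested. All genes under 200 bases together held 0.206 ± 0.0146% of the counts and 7.48 ± 0.535% of the summed RPKM. The libraries were not prepared from small RNA, and mature miRNAs were not measured.

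Genes of the mitochondrial chromosome held 4.14, 3.56 and 3.65% of the counts. Their rRNAs took 82.3 ± 1.80% of this, with mt-Rnr2 at 13680, 11512 and 12870 RPKM and mt-Rnr1 at 12846, 10970 and 10835 RPKM. Mitochondrial protein-coding genes held 0.667 ± 0.0866% of all counts. The highest were mt-Co1, a subunit of cytochrome c oxidase, at 1401 ± 211 RPKM, and mt-Cytb, of the cytochrome bc1 complex, at 1207 ± 191 RPKM. The lowest was mt-Nd3, a subunit of complex I, at 12.7 ± 1.69 RPKM. The mitochondrial genes are transcribed as long joint precursors, yet mt-Co1 exceeded mt-Nd3 by 119, 128 and 88.1 times.

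Mitochondrial mRNAs differed between the libraries in a shared direction. Of the 13 protein-coding genes, 11 were lowest in replicate 3 and 8 were highest in replicate 1. Pseudogene copies of mitochondrial genes in the nuclear genome share reads with them. In all, 10 such pseudogenes, 6 of them on chromosome 1, held 0.151 ± 0.0171% of the counts, and mt-Co2 (301 RPKM) would stand at 719 ± 78.8 RPKM with the reads of its 2 copies, Gm28661 and Gm13341.

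**Figure D3:**
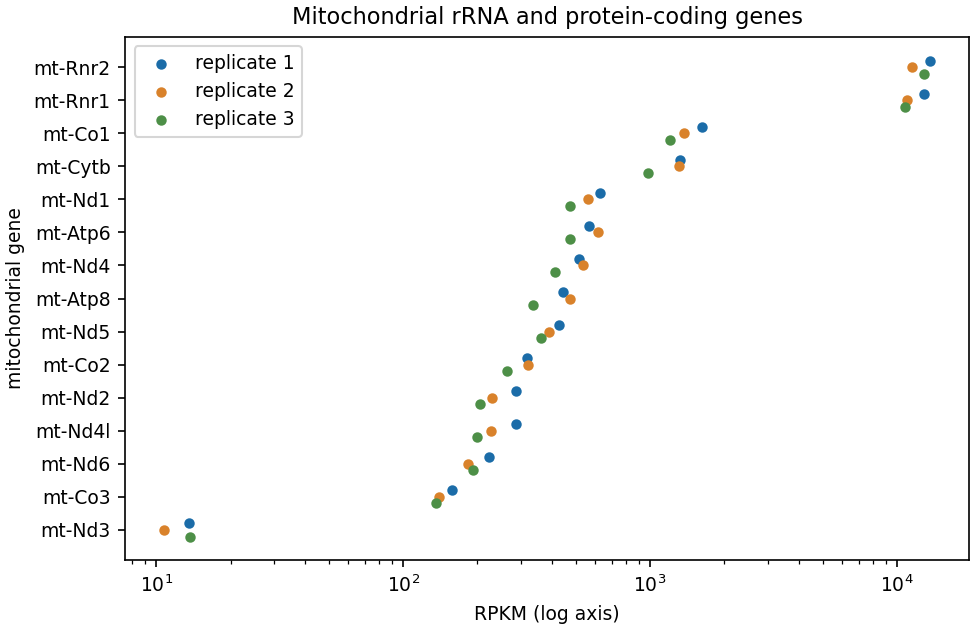
RPKM (log axis) of the 2 mitochondrial rRNA genes and the 13 mitochondrial protein-coding genes, with a point for each of the 3 replicates. The rRNAs lie at 10835 RPKM and above, and replicate 3 is the lowest for 11 of the 13 protein-coding genes.

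Groups of genes with known oocyte roles were then ordered by function. They were set beside all 21896 protein-coding genes, including those without a count, of which 3.96% were among the 1000 most abundant genes and whose median was 0.634 RPKM. The lists and their members were chosen with earlier results of these data known, so this comparison is a description and tests nothing. The zona pellucida and egg surface genes had a median of 292 RPKM, and 8 of 10 were among the first 1000. Zp1 stood at 402 ± 37.2 RPKM and Zp2 at 462 ± 80.3 RPKM, and Zp3 exceeded Zp2 by 2.40, 2.62 and 2.27 times. Izumo1r, the egg receptor Juno, had 64.9 RPKM and Cd9, needed for gamete fusion, had 23.0 RPKM, whereas its relative Cd81 had 1.37 RPKM. Zp3 is shown with the 300 bases around its start site (250 before, 50 after, RefSeq, GRCm38.p6, chr5:135979855-135980154, plus strand), with each CANNTG, the letters that E-box binding factors recognise, in capitals.
Zp3: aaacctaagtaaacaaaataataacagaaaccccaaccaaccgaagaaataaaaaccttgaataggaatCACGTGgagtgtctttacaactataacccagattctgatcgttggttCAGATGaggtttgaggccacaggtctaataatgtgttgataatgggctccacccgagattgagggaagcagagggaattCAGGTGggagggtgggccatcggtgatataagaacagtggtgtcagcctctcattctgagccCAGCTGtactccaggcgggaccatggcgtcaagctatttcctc
This window held 4 such matches. They start 181, 134 and 55 bases before and 7 bases after the start site. Matches of this kind are common, since 72.3% of all 32851 promoter windows of this length held at least 1 (both strands counted, CANNTG being its own reverse complement). Among the windows of the 100 most abundant nuclear protein-coding genes, 76.3% held it, against 63.5% for the other protein-coding genes at 1 RPKM or more and 76.0% for those without a count. A sequence was found for 70 of these 100 genes. The median window of the 100 genes held 15 CpG, that of the other genes at 1 RPKM or more 21, and that of genes without a count 3.

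The subcortical maternal complex, a protein assembly under the egg membrane that early cleavage requires, had the highest median of the groups after the 5 markers (331 RPKM), and all 8 genes were among the first 1000. Below Zbed3 and Padi6 came Ooep at 507 ± 16.1 RPKM and Tle6 at 259 ± 25.0 RPKM, and Khdc3 was the lowest at 80.9, 62.8 and 94.3 RPKM. The NLRP genes expressed in oocytes, which share a nucleotide-binding domain, had a median of 130 RPKM, from Nlrp14 down to Nlrp4c at 9.39 RPKM. The oogenesins Oog1 to Oog4 lay between 197 and 293 RPKM. Of the Obox homeobox genes, Obox2 had 433 RPKM, Obox1 318 RPKM and Obox5 186 RPKM, while Obox3 had 2.16 RPKM and Obox6 0.135 RPKM. Obox1, Obox2 and Obox5 are close copies of each other and share reads, so their order is uncertain.

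Genes that hold or remove stored mRNA were also abundant. Those for mRNA storage and translational control had a median of 149 RPKM, led by Eif4e1b, an oocyte form of the cap-binding protein, at 476 ± 27.7 RPKM. Zar1, a binding protein of maternal mRNA, had 357 RPKM and Cpeb1, which directs cytoplasmic polyadenylation, 294 RPKM. Ddx6, an RNA helicase, was the lowest at 8.23 RPKM. Genes for mRNA decay at maturation had a median of 90.1 RPKM. Dcp1a, of the decapping complex, had 473 RPKM, Btg4, the adaptor of the CCR4-NOT deadenylase, had 384 ± 15.6 RPKM, and the deadenylase Cnot6l had 90.1 ± 4.02 RPKM, while Zfp36l2 had 3.73 RPKM.

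Genes of meiotic arrest and resumption had a median of 51.0 RPKM, with 16 of 17 at 1 RPKM or more in every library. Wee2, the kinase that keeps Cdk1 inactive, led at 260, 273 and 268 RPKM. Ccnb1, the cyclin of Cdk1, had 128 RPKM and Mos, the kinase of the second arrest, 109 ± 8.98 RPKM, against 10.7 RPKM for Cdk1 itself. Pde3a, the phosphodiesterase that lowers cAMP, had 51.7 RPKM and Gpr3, the receptor that maintains it, 51.0 RPKM, whereas the related Gpr12 had 1.68 RPKM. Genes of early meiotic prophase, a stage these cells have completed, had a median of 1.15 RPKM. Spo11, Stra8 and Rec8 were at 0 counts in all 3 libraries, and Sycp2, of the synaptonemal complex, was the highest at 11.4 ± 0.424 RPKM.

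Chromatin genes split by family member. Dnmt1 exceeded the de novo enzyme Dnmt3a (29.7 RPKM) by 21.8, 22.2 and 21.3 times, and Dnmt3b had 6.02 RPKM. Tet3, the maternal 5-methylcytosine dioxygenase, had 337 ± 29.9 RPKM, whereas Tet2 had 1.68 RPKM and Tet1 0.895 RPKM. Npm2, a histone chaperone of the egg, had 410 RPKM. Among transcription factors, Nobox had 269 ± 4.95 RPKM, Sall4 185 RPKM and Lhx8 79.6 RPKM. Figla, which activates the zona genes, had 9.47 ± 1.38 RPKM, and Sohlh1, a factor of early follicles, had counts in 1 library alone, with a mean of 0.0341 RPKM.

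In the small RNA pathways, single genes stood above the rest. Dicer1 exceeded the nuclear miRNA processor Drosha by 4.39, 4.12 and 4.53 times and the slicing Argonaute Ago2 (2.19 ± 0.296 RPKM) by 39.1, 51.3 and 50.2 times. The paper states that most Dicer protein in mouse oocytes is a truncated oocyte isoform. The RPKM of Dicer1 divides by all 9851 annotated exon bases and does not separate isoforms, so its level and these ratios depend on that length. Ago3 was the highest Argonaute at 17.2 ± 0.670 RPKM, and the median of the 10 RNAi genes was 4.50 RPKM. In the piRNA pathway, which restrains transposable elements in germ cells, the scaffold gene Tdrd1 stood at 293, 281 and 287 RPKM. The next, Asz1, had 40.8 RPKM, and the group median was 9.43 RPKM. The PIWI genes were low, with Piwil1 at 6.75 RPKM, Piwil2, which encodes MILI, at 0.996, 0.617 and 1.22 RPKM, and Piwil4 at 0.0177 RPKM.

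**Figure D4:**
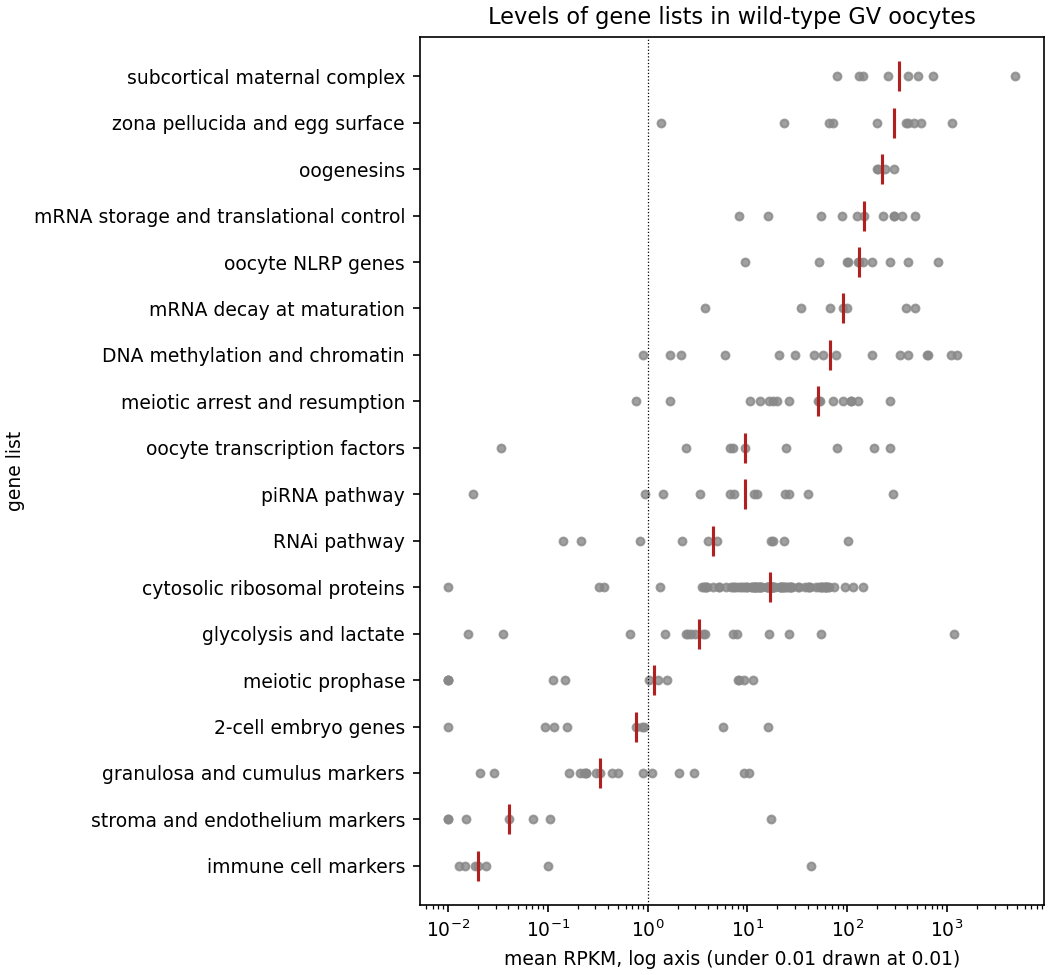
Mean RPKM (log axis) of each member of 18 gene lists, with a bar at the list median and a dotted line at 1 RPKM. The 8 lists at the top have medians between 51.0 and 331 RPKM, while the lists of other cell types at the bottom have medians of 0.332 RPKM and less, each of the last 2 with 1 member far to the right.

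Genes often taken as constant references were low or unusual in these cells. Ldhb exceeded Ldha, which encodes the other main lactate dehydrogenase subunit and had 2.30, 0.807 and 1.36 RPKM, by 532, 1249 and 955 times. Gapdh had 2.74, 2.17 and 2.44 RPKM and Ppia 4.69, 4.15 and 4.71 RPKM, below Actb at 42.1 ± 3.43 RPKM. The median of the 16 entries for glycolysis and lactate was 3.27 RPKM, and Ldhb was the single entry of that list among the first 1000. Bpgm, described above, was not in the list. The counts of Ldha, Gapdh and Ppia were not whole numbers, so part of their reads was shared with other entries, and how many was not measured. Ldha rested on 302, 92.8 and 157 counts (CV 50.7%), so the ratio of Ldhb to Ldha is imprecise. The 8 close copies of genes of the glycolysis and lactate list, 7 of them pseudogenes, held 0.0324 ± 0.00395% of all counts. The list itself held 0.186 ± 0.0222%. The 83 cytosolic ribosomal protein genes had a median of 16.8 RPKM, from Rpl4 at 144 ± 11.2 RPKM and Rpl41 at 115 RPKM to Rpl3l, a form found in muscle, which was under the floor of 3 counts. They held 0.208 ± 0.0170% of all counts, and 158 close copies, 148 of them pseudogenes, held another 0.0783 ± 0.00545%. Replication-dependent histone genes had a median of 3.73 RPKM, with Hist1h2aa, a histone variant of germ cells, at 179 RPKM. Many of these histone genes are near-identical, so their separate levels are uncertain.

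Markers of other cell types were mostly at low levels, though many follicle cell markers were detected. Among 17 granulosa and cumulus markers, 14 had at least 10 counts in every library, against 62.6% of all protein-coding genes. At 1 RPKM in every library there were 4 of the 17, against 44.4% of all protein-coding genes. The median was 0.332 RPKM, against 0.634 RPKM for all protein-coding genes, and the sum of the list was 32.0, 25.8 and 30.2 RPKM. The sum was highest in replicate 1, as were 8 of the 14 members with at least 10 counts in every library. The leading members were Nr5a2, a nuclear receptor, at 10.9, 10.2 and 10.1 RPKM, and Cyp19a1, which encodes aromatase, at 9.96, 8.78 and 9.06 RPKM. Hsd3b1 (3.78, 1.62 and 3.25 RPKM) and Inha (1.67, 1.04 and 3.54 RPKM) also reached 1 RPKM in every library. Inhba averaged 1.10 RPKM, Kitl 0.896 RPKM and Amh 0.506 RPKM. Fshr (0.211 RPKM), Foxl2 (0.162 RPKM), Lhcgr (0.0210 RPKM) and Ptx3 (0.0290 RPKM) were lower still. In bulk RNA, fewer cells of a type and less RNA per cell cannot be told apart. Of 5 blood cell markers, 4, the haemoglobin genes, had no count in any library.

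A few genes that mark other cells stood apart from their lists. Ighm, an immunoglobulin constant gene, had 44.9, 44.8 and 39.6 RPKM, while Ptprc (0.0188 RPKM) and Cd79a (0.0130 RPKM), which B cells also express, were near 0. Ighm was not alone among immunoglobulin constant genes. The next of that gene type, Iglc3 and Ighg1, had 29.9 ± 1.86 and 28.6 ± 2.10 RPKM and were not in the immune list. Pecam1, an endothelial adhesion gene, had 16.4, 17.6 and 17.6 RPKM, while Cdh5, the endothelial cadherin gene, had no count. Ighm and Pecam1 were found at similar levels in all 3 libraries (CV 7.03% and 4.17%). Genes of the 2-cell embryo had a median of 0.765 RPKM, with Tcstv1 at 14.5, 14.5 and 19.1 RPKM, partly shared with 3 close copies. Among 1093 olfactory receptor genes, 77 had at least 10 counts in every library, against 62.6% of all protein-coding genes. No read was counted for 500 of them in any library, as for 15873 of the 52636 genes of all types. Olfr976 was the highest, at 43.4, 46.2 and 46.2 RPKM, and the next, Olfr288, had 20.3 RPKM. The counts of both receptor genes were not whole numbers, so part of their reads was shared with other places or genes.

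The chromosomes contributed steadily. Chromosome 11 held 7.38 ± 0.0304% and chromosome 5 held 7.20 ± 0.0258% of the counts, and chromosome Y held 0.0141%. The X chromosome held 3.13, 3.09 and 3.04% of the counts. Among protein-coding genes at 1 RPKM or more, the median level of 317 X-linked genes was 0.760, 0.809 and 0.742 times that of 9353 autosomal genes. This ratio depended on the limit, being 0.664 at 0.1 RPKM and 0.846 at 10 RPKM.

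The 3 libraries resembled each other closely. Over 14136 genes with a mean of at least 1 RPKM, Pearson's r of log2(RPKM + 1) between pairs lay between 0.991 and 0.992 and Spearman's rho between 0.986 and 0.987. These values are across genes, which are not independent replicates. The median CV was 30.9% for genes between 0.1 and 1 RPKM, 11.8% between 1 and 10 RPKM, 6.96% between 10 and 100 RPKM and 6.19% between 100 and 1000 RPKM. It was 8.50% for the 22 genes above 1000 RPKM, where the counts are largest. Each pair differed by at least 2-fold in 177 to 200 genes (1.25 to 1.41%). Over genes with a mean of at least 10 counts, the squared differences between pairs were on average 17.6 to 24.9 times those of counting error alone. This average does not describe a typical gene. The median ratio of variance to counting error was 5.52 for genes between 1 and 10 RPKM and 907 for those of 1000 RPKM and over.

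**Figure D5:**
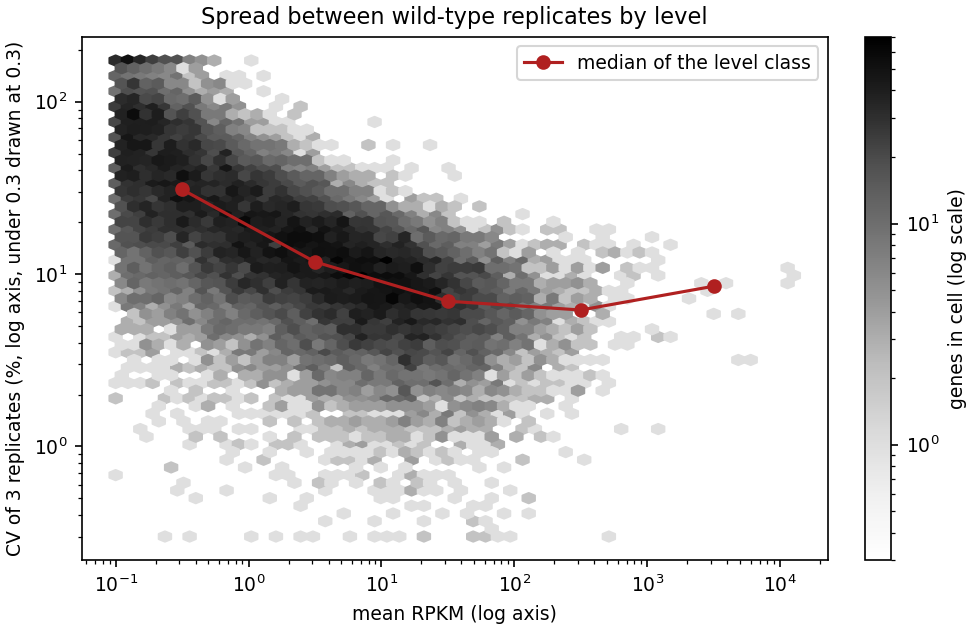
Coefficient of variation over the 3 replicates (percent, log axis) against mean RPKM (log axis) for genes of at least 0.1 RPKM, shaded by the number of genes, with the median of each level class in red. The median falls from 30.9 to 6.19% and is 8.50% in the highest class.

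Part of this spread was shared within groups of genes. Of 5782 genes with a mean of at least 10 RPKM, 2632 were highest in replicate 3. In the same genes, 2139 were lowest in replicate 1, 1872 in replicate 2 and 1771 in replicate 3. Of 82 cytosolic ribosomal protein genes with at least 10 counts in every library, 68 were highest in replicate 3 and 46 were lowest in replicate 2. Of 65 histone genes, 45 were highest in replicate 3. The zona pellucida and egg surface genes were lowest in replicate 2 in 7 of 10 cases, and the subcortical maternal complex genes in 6 of 8. Zp2, for example, had 479, 374 and 532 RPKM. Genes for secreted factors and cell junctions (6 of 7) and translation factors (9 of 12) were also mostly lowest in replicate 2. Some lists did not share the low in replicate 2. Lowest there were 0 of 7 genes for mRNA decay and 4 of 17 for meiotic arrest and resumption. The same held for 1 of 4 oogenesins and 1 of 4 Obox genes. These last 2 lists were nonetheless highest in replicate 3 in 3 of 4 cases each. The ratio of Zp3 to Zp1 was 2.76, 2.72 and 2.81, and varied less than the level of either gene.

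Among genes with a mean of at least 10 RPKM and 100 counts, 10 had the largest CV. Gm26917, a lincRNA gene at chr17:39843013-39846341 beside AY036118 and Gm42418, varied most, with 27.1, 10.8 and 38.4 RPKM (CV 54.6%). Caml had 18.4 RPKM in replicate 1 against 8.12 RPKM in replicate 2 (CV 53.9%) and Cxcr3, a chemokine receptor gene, had 18.3, 9.41 and 10.2 RPKM, so that replicate 1 stood above the others. Fam162b (9.58, 8.68 and 18.5 RPKM), R3hdml (9.35, 9.15 and 17.4 RPKM) and Dctn3, a dynactin subunit (27.4, 26.9 and 50.1 RPKM), were instead highest in replicate 3, as was Gm47350 (CV 37.5%). The others were Gm13200, highest in replicate 2 at 25.2 RPKM, and mt-Tf and Gm15762, highest in replicate 1 at 45.2 and 15.8 RPKM.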

How the data were processed

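Total RNA of wild-type GV oocytes was sequenced as non-stranded single-end reads. Per the submitters' processing notes and the study's methods, the authors aligned reads to mm10 (GRCm38) with STAR 2.5.3a and made the deposited estimated counts with featureCounts over GENCODE M15, where reads with several places or genes were split into fractions, so copies share counts. These expected counts per gene were used as deposited, without rounding, in Python 3.11.15, with the deposited exon length. RPKM divides by that length and the total count. Gene names and types came from GENCODE M21, which matched 52489 of 52636 genes. Close copies were sought with BLAST 2.17.0 at 95% identity over 50% of the longest transcript. Named genes are the 30 most abundant nuclear genes of at least 200 bases, mitochondrial genes, markers, the extremes of each list, the leaders of gene types and the 10 most variable genes. Members and lists were chosen with earlier results of these data known. Alternatives covered the scaling (TPM, TMM of edgeR 4.0.16, size factors of DESeq2 1.42.0), gene filters and leaving out each replicate. The spread calculation was tested on simulated data.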

Additional observations from a re-analysis of the deposited data

How the results depend on the processing

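No paired analysis was possible because a single group was described and no result comes from a test. Leaving out each replicate in turn moved the share of the 100 most abundant genes between 30.6 and 31.3% and the chrM share of counts between 3.60 and 3.89%. The ratio of X-linked to autosomal medians moved between 0.735 and 0.794, of which the lowest was without replicate 2. The number of genes with at least 10 counts lay between 20228 and 20502. It can only rise from the 19833 of all 3 libraries, since fewer libraries have to pass. The median CV lay between 6.37 and 8.21%. A CV from fewer values tends to be lower, so this range is not comparable with that of all 3 libraries. The latter was 9.25% for genes with a mean of at least 1 RPKM. edgeR's TMM and DESeq2 size factors moved none of the values by more than the spread between replicates. As TPM, on another scale, the oocyte marker median was 1416, the summed granulosa markers 76.3 and the X ratio 0.726. TPM multiplies all genes of a library by the same factor, so the X ratio can move only through the genes that pass the limit. Without chrM genes, the first 10, 100 and 1000 genes held 12.4, 26.1 and 56.5% of the summed level, lincRNA 4.70%, processed pseudogenes 7.73% and genes annotated as miRNA 7.20%, and protein-coding genes held 93.6% of the counts. Without genes under 200 bases the first 10, 100 and 1000 held 13.8, 27.3 and 57.8%, lincRNA 4.67% and miRNA 0%. With a limit of 0.1 RPKM 20264 genes passed and the X ratio was 0.664, and with 10 RPKM 5484 passed and it was 0.846. Leaving out every gene with a count that was not whole removes 94.9% of the counts by construction: 3514 genes then had 10 counts and 1855 reached 1 RPKM, the first 10 and 1000 genes held 8.0 and 83.8% of the level, 260 genes made up 50%, chrM held 0.00117% and protein-coding genes 95.7% of counts, lincRNA 5.80%, processed pseudogenes 0.877% and miRNA 0.639% of the level, and the X ratio was 0.594. Without a filter on level the median CV was 18.6%. The causes of these shifts were not tested beyond what each setting removes. RPKM uses the length of all annotated exons, so the level of a gene with a shorter isoform would be understated.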
